A study of Mus musculus with 24 samples.

Results

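The nitric oxide, dimethylarginine and cyclic GMP genes of the mouse left ventricle were followed through 10 members: Ddah1, Ddah2, Nos1, Nos2, Nos3, Arg1, Arg2, Gucy1a3, Gucy1b3 and Prkg1. Every probe annotated to one of them was taken, in the platform's annotation or in the gene column of the authors' deposited table, with letter case ignored and the older names of soluble guanylate cyclase kept. This gave 22 of the 45281 probes, and 10 of 20703 named genes. A filter on dim probes, which asked for a value above the array's median on at least 6 of 24 arrays, left 18 member probes of 9 genes. Arg2 had 1 probe, and it was above the array's median on 0 of 24 arrays. Probes of 1 gene are numbered here from the brightest.

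Total RNA of 24 left ventricles, 1 heart an array, was hybridised to Illumina bead arrays. All mice were male and of mixed genetic background. The knockout (KO) hearts lacked the prostaglandin E2 receptor EP4 by a cardiac-specific deletion, and the labels split them by ejection fraction (EF), the share of blood the ventricle expels at each beat. There were 6 KO hearts with low EF (13.7 to 34%, aged 27 to 33.5 weeks), 7 KO hearts with high EF (45.9 to 76.4%, 27 to 33.5 weeks) and 11 wild-type (WT) control hearts (71.4 to 86.1%, 27 to 33 weeks). The sources used here do not give the promoter that drove the deletion, nor the alleles that the controls carried.

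Nitric oxide is made from arginine by the neuronal, inducible and endothelial synthases, encoded by Nos1, Nos2 and Nos3. Asymmetric dimethylarginine, released when methylated proteins are degraded, inhibits these synthases, and the dimethylarginine dimethylaminohydrolases Ddah1 and Ddah2 clear it, yielding citrulline. The arginases Arg1 and Arg2 draw on the same arginine. Nitric oxide activates soluble guanylate cyclase, a heterodimer of an alpha chain (Gucy1a3, now Gucy1a1) and a beta chain (Gucy1b3, now Gucy1b1), and the cyclic GMP it forms activates the kinase Prkg1, which lowers contractile calcium responses in smooth muscle and heart.

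One array stood apart from the rest. KO high EF replicate 11 had a median correlation with the other arrays of 0.778, against 0.968 to 0.986 for the other 23, and its lowest deposited intensity was 8.62, where every other array but WT replicate 1 (7.76) stayed at or above 59.1. Results without this array are given beside many of the counts and values below, though not beside every one. The targeted gene, Ptger4, was near the floor: its brighter probe had medians of 6.90 in KO low EF, 7.08 in KO high EF and 6.90 in WT hearts on the log2 scale, beside an array median of 6.77. Neither of its 2 probes passed the test in either KO group, and where the probes lie relative to the deleted part is not given, so the array does not check the deletion. The mean of 6 cardiomyocyte markers was 14.82 to 15.31 (log2) on all 24 arrays and that of 4 hepatocyte markers 6.38 to 6.74. In whole-tissue RNA, fewer cells of a type and less RNA per cell cannot be told apart.

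In KO low EF hearts against WT hearts, 3 of the 18 member probes passed the test (limma, adjusted p under 0.05 over 25425 probes), all higher: Ddah1, Ddah2 and the dimmest Prkg1 probe. Over all probes tested, 24.4% passed in this comparison, 12.1% higher and 12.3% lower. Of these calls 49.5% were higher, and 66.3% with arrays scaled by their medians, where the same number of member probes, 3, were higher. The median difference over the 18 member probes was -0.07 (log2), beside -0.01 over all probes. In KO high EF against WT hearts, 5 member probes passed, 4 higher and 1 lower, beside 14.4% of all probes (8.5% higher, 5.9% lower). Without KO high EF replicate 11 it was 4 member probes, 2 higher and 2 lower, beside 19% of all probes, and with median scaling 1, higher, beside 6.73%. Between the KO groups, low EF against high EF, 1 member probe passed, Ddah1, higher, beside 2.92% of all probes (0.932% higher, 1.99% lower). Median scaling left 18 calls over all probes in that comparison, 66.7% of them higher, where 743 calls were otherwise 31.9% higher.

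**Figure D1:**
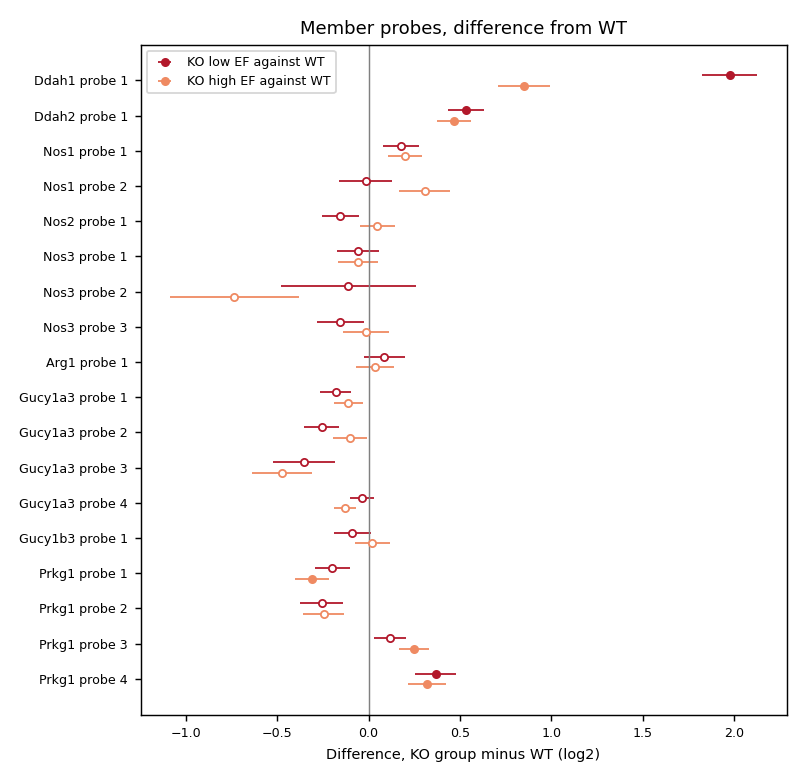
Difference of each KO group from WT (log2, horizontal axis) for the 18 member probes that passed the filter; bars are standard errors and filled points have an adjusted p under 0.05. Ddah1 stands at 1.98 for KO low EF and 0.85 for KO high EF, and Ddah2 at 0.53 and 0.47, and the farthest of the others are Nos3 probe 2 (-0.74) and Gucy1a3 probe 3 (-0.47) in KO high EF, both with open points.

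Ddah1 was the member that differed most. Its probe (ILMN_1256676) read 10.14, 10.66 and 10.69 (lowest, median and highest, log2) in the 6 KO low EF hearts, 8.81, 9.33 and 10.12 in the 7 KO high EF hearts, and 8.27, 8.59 and 8.77 in the 11 WT hearts. The 3 groups did not overlap: every KO low EF heart was above every KO high EF heart, and every KO high EF heart was above every WT heart. In the deposited intensities the medians were 1747, 747.7 and 386.5 in the same order of groups.

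Ddah1 was 3.93-fold higher in KO low EF than in WT hearts (log2 difference 1.98 ± 0.15 SE, limma, adjusted p = 5.98e-10). It was 1.80-fold higher in KO high EF than in WT hearts (0.85 ± 0.14, adjusted p = 0.000161). The difference between the KO groups was itself past the threshold, 2.18-fold higher in low EF (1.13 ± 0.17, adjusted p = 0.000758). Groups that do not overlap were found for 12.3% of all probes in KO low EF against WT, 3.25% in KO high EF against WT and 1.28% between the KO groups. Without KO high EF replicate 11, the lowest heart of its group, the 3 differences were 1.99, 0.95 and 1.03, with adjusted p-values of 1.35e-11, 8.98e-06 and 0.000655. With arrays scaled by their medians, the difference between the KO groups was 1.29 with an adjusted p of 0.0546.

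The array labels share 4 starts, read here as 4 chips although no source says what they stand for. As the 3 groups did not overlap for Ddah1, its direction on every chip was fixed in advance, and only the sizes are described. KO low EF hearts exceeded WT hearts by 2.23, 1.85 and 1.90 on chips 1, 2 and 3. KO high EF hearts exceeded WT hearts by 1.66, 1.18, 0.77 and 0.48 on chips 1 to 4. The excess of KO low EF over KO high EF hearts was 0.57, 0.67 and 1.14 on chips 1, 2 and 3, and chip 4 held no KO low EF heart. Several of these sizes rest on 1 heart: chip 1 held 1 heart of each KO group, chip 2 held 1 KO high EF heart and chip 3 held 1 WT heart. In the authors' deposited table the Ddah1 means were 10.34 in KO low EF, 9.42 in KO high EF and 8.84 in WT hearts (log2), with a p-value of 2.06e-11 from a test that the sources used here do not name.

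Ddah2 (ILMN_2770183), the second dimethylarginine hydrolase, read 9.31, 9.74 and 10.11 (lowest, median and highest, log2) in KO low EF hearts, 9.41, 9.72 and 9.93 in KO high EF hearts, and 9.01, 9.23 and 9.39 in WT hearts. All KO high EF hearts were above all WT hearts, and 1 of 6 KO low EF hearts, replicate 3, fell within the WT range. Ddah2 was 1.45-fold higher in KO low EF than in WT hearts (0.53 ± 0.10, adjusted p = 0.000168) and 1.38-fold higher in KO high EF than in WT hearts (0.47 ± 0.09, adjusted p = 0.0010). With replicate 11 of the KO high EF group left out these were 0.54 and 0.43, with adjusted p-values of 4.97e-05 and 0.00162. With arrays scaled by their medians, the KO high EF difference was 0.41 with an adjusted p of 0.124. The difference between the KO groups, low minus high EF, was 0.07 with a 95% interval of -0.16 to 0.29 and did not pass the test (adjusted p = 0.816). Without replicate 11 it was 0.11, with an interval of -0.11 to 0.33, and again did not pass.

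**Figure D2:**
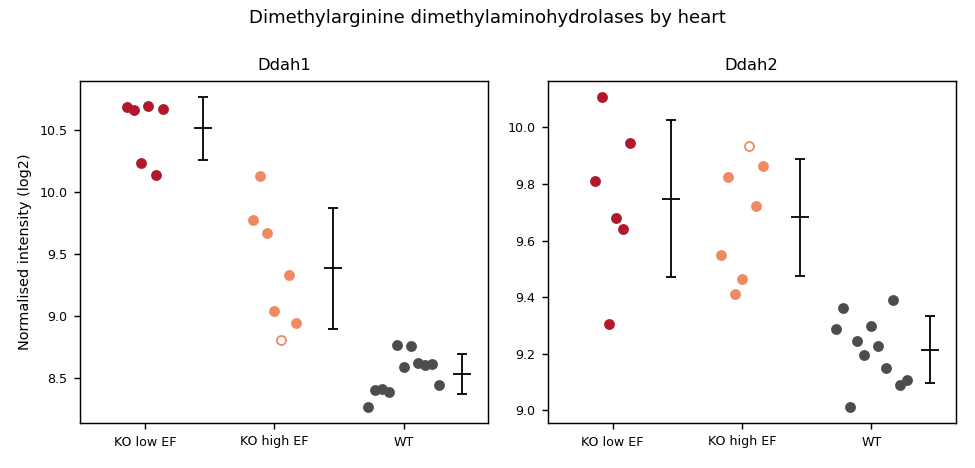
Normalised intensity (log2, vertical axis) of Ddah1 and Ddah2 in each heart of the 3 groups; bars give the mean and SD, and the open circle is KO high EF replicate 11. Ddah1 falls into 3 separate bands, while the Ddah2 values of both KO groups lie over the same range, largely above WT.

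The start regions of both Ddah genes are shown because these were the member genes that passed the test in both KO groups with their brightest probe. Each window runs from 250 bases before to 50 after the annotated start in RefSeq (GRCm38.p6), at chr3:145758442-145758741, plus strand, for Ddah1 and chr17:35058785-35059084, plus strand, for Ddah2. Capitals mark CG dinucleotides.
Ddah1: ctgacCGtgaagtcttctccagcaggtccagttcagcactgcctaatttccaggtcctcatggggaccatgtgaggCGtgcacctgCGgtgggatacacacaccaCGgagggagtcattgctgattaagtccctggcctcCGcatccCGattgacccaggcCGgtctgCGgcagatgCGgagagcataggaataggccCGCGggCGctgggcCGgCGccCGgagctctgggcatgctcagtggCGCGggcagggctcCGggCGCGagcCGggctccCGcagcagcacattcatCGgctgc
Ddah2: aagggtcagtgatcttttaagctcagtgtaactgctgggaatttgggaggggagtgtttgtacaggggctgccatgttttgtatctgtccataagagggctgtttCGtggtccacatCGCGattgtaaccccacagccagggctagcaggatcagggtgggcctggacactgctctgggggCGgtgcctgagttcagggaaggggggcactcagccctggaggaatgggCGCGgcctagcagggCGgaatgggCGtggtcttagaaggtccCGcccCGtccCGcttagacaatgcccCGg
The Ddah1 window held 23 CG dinucleotides with 65.7% G and C, and 21.5% of 32817 such mouse windows held as many or more. The Ddah2 window held 12 CG dinucleotides with 59.7% G and C, and 39.6% of windows held as many or more. GGGCGG (the GC box, either strand) occurred 3 times in the Ddah2 window and 0 times in that of Ddah1, and 35.6% of all windows hold it. CATTCC (the M-CAT core, either strand) occurred 2 times in the Ddah2 window, 1 of them sharing bases with a GC box, and 0 times in that of Ddah1; 14.7% of all windows hold it. The AP-1 site TGACTCA, the TATA box TATAAA, the CCAAT box CCAAT and the E-box CACGTG, searched on both strands, were in neither window, and 5.20%, 13.6%, 37.4% and 7.15% of all windows hold them. A match is a description of these letters only.

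Within the 13 KO hearts, Ddah1 fell by 0.33 ± 0.05 (SE, log2) for every 10 points of ejection fraction (limma, adjusted p = 0.00849). It was 1 of 18 member probes past the threshold for this slope, beside 1.99% of all probes (1.33% rising and 0.661% falling with EF). Among the KO low EF hearts, whose EF ran over 13.7 to 34%, the values showed no order, with 10.69 at 13.7% and 10.67 at 34%. Among the KO high EF hearts the level was 9.78 at 45.9%, 10.12 at 47.2%, 9.67 at 53.2% and 9.05 at 53.7%. At higher EF it was 8.81 at 60.2% (replicate 11), 9.33 at 60.8% and 8.95 at 76.4%. These last hearts were the only KO hearts on chip 4, so at that end EF and chip cannot be told apart among KO hearts. The KO heart with the highest EF, within the range of WT hearts, still read above the highest WT heart (8.77).

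Without KO high EF replicate 11 the Ddah1 slope was -0.31 ± 0.04 (adjusted p = 0.00104). The slope and the EF group overlap in these hearts: with the EF group as a term, the slope left within the groups was -0.27 ± 0.11 (adjusted p = 0.9999), with chip as a fixed block it was -0.30 (adjusted p = 0.183), and with median scaling -0.39 (adjusted p = 0.127). In each of those 3 fits 0 probes passed for the slope in limma, and 1 member probe, Ddah1, had an unadjusted p under 0.05. Ddah2 had a slope of 0.00 ± 0.04 per 10 points, with a 95% interval of -0.08 to 0.08. The slopes of the other 16 member probes did not pass the test, and ran from -0.16 (Nos3 probe 2) to 0.09 (Nos1 probe 2). Without KO high EF replicate 11 these 2 slopes were 0.01 and 0.05, and the 16 ran from -0.05 (Prkg1 probe 1) to 0.05 (Nos2 probe 1), none past the threshold.

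**Figure D3:**
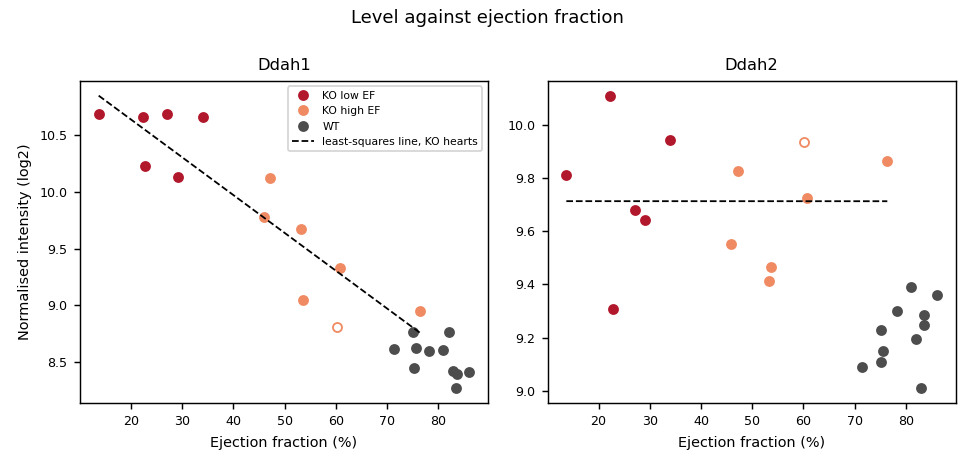
Normalised intensity (log2, vertical axis) of Ddah1 and Ddah2 against ejection fraction (%, horizontal axis) in KO low EF, KO high EF and WT hearts; the dashed line is the least-squares line through the 13 KO hearts and the open circle is KO high EF replicate 11. Ddah1 declines by 0.33 per 10 points over the KO hearts, while the Ddah2 line is level.

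The genes whose pattern was most like that of Ddah1 over the 23 arrays without KO high EF replicate 11, among 13440 named genes, were Nkd2 (Pearson r = 0.98), Srpx2 (0.97) and Endod1 (0.96). Nkd2 encodes a Dishevelled-binding antagonist of Wnt signalling and Srpx2 a secreted sushi-repeat protein. Over the 12 KO arrays alone the values were 0.96, 0.94 and 0.91. For Ddah2 they were Tpm1 (0.90), the gene of alpha-tropomyosin, Nt5c (0.86), a cytosolic nucleotidase, and Samd14 (0.85). Over the 12 KO arrays these were 0.84, 0.62 and 0.62. The points share chips, normalisation and the split into groups, so these values describe the arrays and are given without a p-value.

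Marker genes of some cell types also differed between KO and WT hearts. In KO low EF against WT hearts 9 of 10 macrophage markers and 5 of 6 fibroblast markers were higher, and 3 of 6 cardiomyocyte markers were lower. The lower ones, Tnni3, Ryr2 and Ckm, differed by -0.59, -0.50 and -0.72. Myh6, Actc1 and Myl2, not called, were the brightest of that list (means of 15.94, 15.95 and 15.91 in WT hearts). Whether the top of the intensity scale hid a difference in them was not tested. The mean log2 level of the macrophage list was 10.27 to 10.56 in KO low EF, 9.92 to 10.42 in KO high EF and 9.24 to 9.61 in WT hearts. That of the fibroblast list was 11.88 to 12.31 in KO low EF, 11.42 to 12.15 in KO high EF and 10.92 to 11.32 in WT hearts. That of the cardiomyocyte list was 14.82 to 15.01 in KO low EF, 14.96 to 15.08 in KO high EF and 15.07 to 15.31 in WT hearts. The smooth muscle and pericyte list had 2 of 9 genes higher and 1 lower, and none of the 12 endothelial, 4 neutrophil, 3 neuron and 1 hepatocyte markers that passed the filter passed the test. For KO high EF against WT hearts, 8 macrophage, 5 fibroblast and 1 smooth muscle and pericyte markers were higher and 2 cardiomyocyte markers lower. Without replicate 11 that comparison had 9 macrophage, 6 fibroblast and 1 smooth muscle and pericyte markers higher, and 3 cardiomyocyte, 1 endothelial and 1 smooth muscle and pericyte markers lower. With replicate 11 of the KO high EF group left out, 10 macrophage and 6 fibroblast markers were higher in KO low EF against WT hearts, 3 smooth muscle and pericyte markers were higher and 1 lower, 1 endothelial marker was higher and 1 lower, and 1 neuron marker was lower. The part of these cells in the Ddah differences was not tested.

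The endothelial synthase Nos3 was the synthase measured well above the array median, by 3 of its 4 probes. Probe 1 read 9.57, 9.68 and 9.90 (lowest, median and highest, log2) in KO low EF hearts, 9.40, 9.67 and 10.27 in KO high EF hearts, and 9.38, 9.77 and 10.16 in WT hearts. The groups overlapped on all 3 probes. Differences of KO low EF from WT hearts were -0.06 ± 0.11, -0.11 ± 0.37 and -0.15 ± 0.13 on probes 1 to 3, and none passed the test (adjusted p = 0.807, 0.899 and 0.487).

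On KO high EF replicate 11 the 3 Nos3 probes went apart, at 10.27, 5.95 and 10.47, where the other 6 KO high EF hearts lay at 9.40 to 9.72, 9.41 to 9.93 and 9.10 to 9.41. Without it, KO low EF hearts differed from WT hearts by -0.06 ± 0.09, -0.11 ± 0.10 and -0.15 ± 0.07, with 95% intervals of -0.25 to 0.13, -0.32 to 0.10 and -0.30 to -0.01. KO high EF hearts then differed from WT hearts by -0.15, -0.20 and -0.18. None of these passed the test, and the smallest adjusted p-values, on probe 3, were 0.0963 for KO low EF and 0.0756 for KO high EF. The mean level of 12 endothelial markers was 11.05 to 11.29 in KO low EF, 10.94 to 11.12 in KO high EF without replicate 11 (9.49 on it) and 10.98 to 11.28 in WT hearts. The fourth Nos3 probe, which the authors' deposited table lists under a clone name marked as a reverse complement, was above the array's median on 1 of 24 arrays.

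Nos1, Nos2 and the arginases were near the array median of 6.77, where the background offset of 50 draws values together. Nos1 probe 1 averaged 6.86 ± 0.19 in KO low EF, 6.89 ± 0.17 in KO high EF and 6.69 ± 0.21 in WT hearts (SD; log2), and its differences from WT of 0.18 and 0.20 did not pass the test (adjusted p = 0.225 and 0.171). Nos1 probe 2, which the authors' deposited table names 2310005C01RIK, averaged 6.60 ± 0.20 in KO low EF, 6.92 ± 0.42 in KO high EF and 6.61 ± 0.25 in WT hearts; its KO high EF difference from WT was 0.31 (adjusted p = 0.158), and 0.15 without replicate 11, which read 7.85. The inducible synthase Nos2 averaged 7.11 ± 0.28 in KO low EF, 7.32 ± 0.19 in KO high EF and 7.27 ± 0.15 in WT hearts on its brighter probe (adjusted p = 0.321 and 0.79 against WT). Arg1, the cytosolic arginase, averaged 6.89 ± 0.10 in KO low EF, 6.84 ± 0.28 in KO high EF and 6.80 ± 0.22 in WT hearts (adjusted p = 0.684 and 0.861). Arg2, the mitochondrial arginase, averaged 6.29 ± 0.23 in KO low EF, 6.21 ± 0.19 in KO high EF and 6.36 ± 0.24 in WT hearts and was not tested after the filter. With no filter on dim probes, Arg2 and the second probes of Nos2 and Arg1 did not pass the test in any of the 4 comparisons either.

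The alpha chain of soluble guanylate cyclase, Gucy1a3, was measured by 4 probes and the beta chain, Gucy1b3, by 1; the 2 genes lie next to each other on the chromosome in RefSeq (GRCm38.p6). The brightest Gucy1a3 probe read 10.16, 10.34 and 10.52 (lowest, median and highest, log2) in KO low EF hearts, 10.14, 10.40 and 10.73 in KO high EF hearts and 10.29, 10.51 and 10.73 in WT hearts, so the groups overlapped. In KO low EF against WT hearts the 4 probes differed by -0.18, -0.26, -0.35 and -0.04, and none passed the test (adjusted p = 0.128, 0.0565, 0.15 and 0.786). Against WT, the KO high EF hearts differed by -0.11, -0.10, -0.47 and -0.13, with adjusted p-values of 0.38, 0.497, 0.0528 and 0.184.

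Gucy1a3 probe 3 stood at 6.21 on KO high EF replicate 11, where the other 6 KO high EF hearts lay at 7.41 to 8.02. Without that array, Gucy1a3 probes 2 and 3 were lower in KO low EF than in WT hearts by limma's test (-0.26, adjusted p = 0.0312, and -0.36, adjusted p = 0.00299), and probe 3 also in KO high EF hearts (-0.26, adjusted p = 0.0484). The count of member probes past the threshold in KO low EF against WT hearts was then 5 of 18, beside 33.8% of all probes, and also 5 without WT replicate 1, beside 24.7%, where Gucy1a3 probe 2 (adjusted p = 0.0323) and Prkg1 probe 1 (adjusted p = 0.0404) passed. Gucy1b3 averaged 8.87 ± 0.15 in KO low EF, 8.98 ± 0.28 in KO high EF and 8.96 ± 0.16 in WT hearts. Its differences from WT, -0.09 (95% interval -0.30 to 0.12) and 0.02 (-0.18 to 0.22), did not pass the test. Without KO high EF replicate 11 these differences were -0.09 and -0.06, and neither passed.

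The probes of Prkg1, the cyclic GMP kinase, did not share a direction. Probe 1 read 9.51, 9.81 and 10.05 (lowest, median and highest, log2) in KO low EF hearts, 9.47, 9.61 and 9.94 in KO high EF hearts and 9.55, 9.99 and 10.18 in WT hearts, with overlap of all groups. It was lower in KO high EF than in WT hearts (-0.31 ± 0.09, adjusted p = 0.0223; -0.35 and 0.00732 without replicate 11) and did not pass in KO low EF hearts (-0.20 ± 0.10, adjusted p = 0.151). The KO high EF call was lost without KO high EF replicate 9, 10 or 12 in turn (adjusted p = 0.0526, 0.0545 and 0.0588) and with chip as a fixed block, the replicate block and median scaling (adjusted p = 0.0616, 0.197 and 0.234). Probe 2 differed by -0.26 (KO low EF) and -0.25 (KO high EF) from WT hearts and did not pass (adjusted p = 0.12 and 0.153).

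Prkg1 probes 3 and 4 were close to the array median and ran the other way. Probe 4 read 6.91, 7.02 and 7.12 in KO low EF hearts, 6.64, 6.91 and 7.72 in KO high EF hearts and 6.39, 6.65 and 6.91 in WT hearts. The lowest KO low EF heart (6.914) lay just above the highest WT heart (6.910), while the KO high EF hearts overlapped both groups. In KO low EF against WT hearts the groups did not overlap for 2 of 18 member probes, beside 12.3% of all probes. Probe 4 was higher in KO low EF than in WT hearts by 0.37 ± 0.11 (adjusted p = 0.0158; 0.000257 without KO high EF replicate 11). Probes 3 and 4 were also higher in KO high EF than in WT hearts, by 0.25 and 0.32 (adjusted p = 0.0447 and 0.0444), and without replicate 11 by 0.20 on each (adjusted p = 0.0926 and 0.0698), which ends both calls. The authors' deposited table names these 2 probes D130060M14RIK and LOC381235 instead of Prkg1, and their place in the gene is not given.

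**Figure D4:**
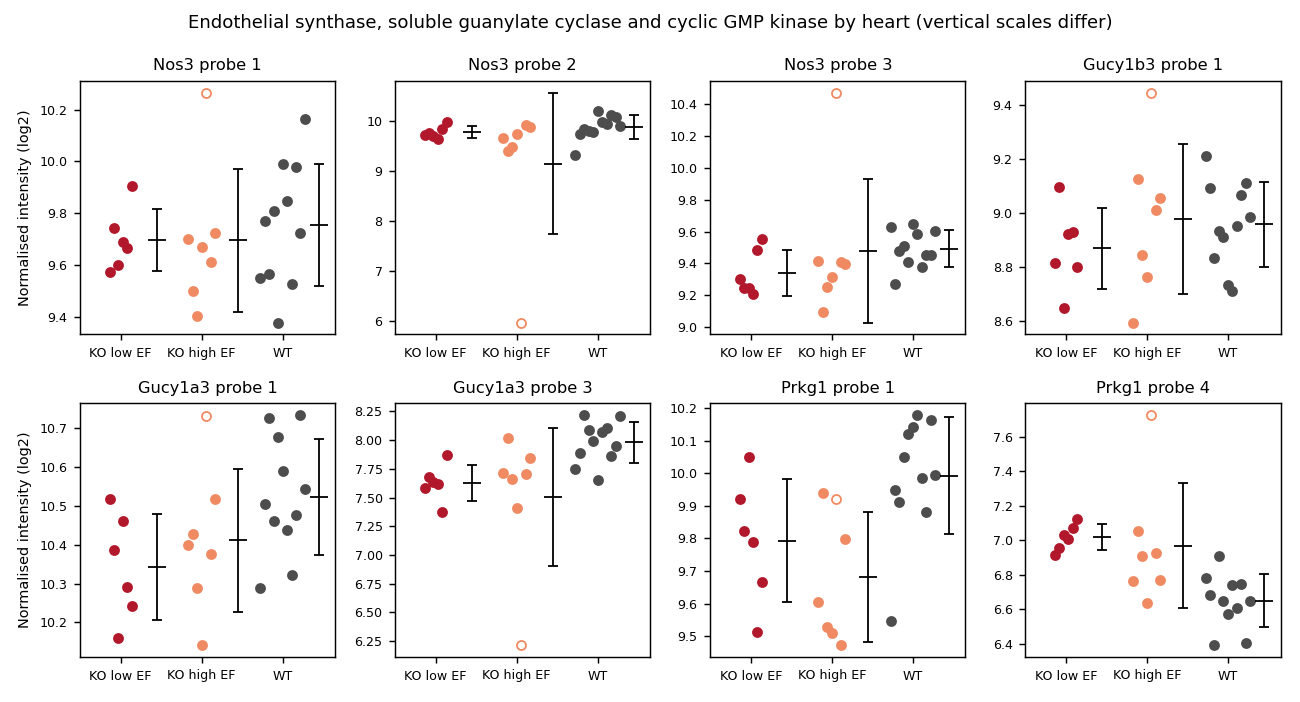
Normalised intensity (log2, vertical axes with different scales) of Nos3, Gucy1b3, Gucy1a3 and Prkg1 probes in each heart; bars give the mean and SD, and open circles are KO high EF replicate 11. On that array Nos3 probe 2 stands at 5.95 and Nos3 probe 3 at 10.47, away from the other hearts, and Prkg1 probe 4 is higher in KO low EF hearts while Prkg1 probe 1 is not.

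The surrounding pathway was described through 6 lists, with 1 probe a gene, the brightest that passed the filter. Over all 14028 genes so measured, 15.1% were higher and 13.5% lower in KO low EF against WT hearts (median difference 0.00), and 10.7% were higher and 6.49% lower in KO high EF against WT hearts (median 0.01). In KO low EF against KO high EF hearts 1.17% were higher and 2.27% lower, and 1.58% rose and 0.87% fell with EF in KO hearts. Among the listed genes Ass1 and Cyb5r3 were higher and Cbr1 lower between the KO groups, Prmt2 and Cyb5r3 fell with EF and Cbr1 rose with it (slopes of -0.10, -0.18 and 0.12 per 10 points, adjusted p = 0.0293, 0.00757 and 0.0413). With median scaling, chip as a fixed block or the EF group as a term, 0 probes passed for the slope, so these calls were lost there. Without KO high EF replicate 11, Prmt2 (0.33, adjusted p = 0.0497), Gchfr (-0.65, 0.0452) and Pln (-0.39, 0.0317) also passed between the KO groups. This made 6 listed genes, beside 4.29% of all probes. Without this array the 6 lists held 14, 13, 17, 12, 14 and 10 measured genes, in the order taken below. The slopes of Ass1 (-0.18, adjusted p = 0.0149), Gchfr (0.22, 0.00984) and Pde1a (-0.11, 0.0203) then also passed, making 6 beside 5.63%. These last 2 shares are over all probes and the counts over 1 probe a gene, so they are not a like background. The list counts without KO high EF replicate 11 given below have the same limit. Leaving it out raised calls over all probes from 24.4% to 33.8% in KO low EF against WT hearts. In KO high EF against WT hearts the rise was from 14.4% to 19%.

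Of 14 measured genes of dimethylarginine formation and arginine transport, 3 were higher and 1 lower in KO low EF against WT hearts (median difference 0.06), and 2 were higher and 2 lower in KO high EF. Without KO high EF replicate 11, 3 were higher and 2 lower in KO low EF, and again 2 and 2 in KO high EF. Prmt2, an arginine methyltransferase, averaged 11.57 ± 0.07 in KO low EF, 11.25 ± 0.15 in KO high EF and 10.57 ± 0.19 in WT hearts (SD; log2). It was 2.01-fold higher in KO low EF (1.00 ± 0.08, adjusted p = 2.30e-09) and 1.60-fold higher in KO high EF than in WT hearts (0.68 ± 0.08, adjusted p = 1.67e-06). The arginine transporter subunit Slc7a6 was higher in KO low EF hearts by 0.34 (adjusted p = 0.00784), and the methyltransferase Prmt3 was lower by 0.21 (adjusted p = 0.0201). Prmt3 passed there in 28 of 34 alternatives, with differences of -0.27 to -0.10 and a highest adjusted p of 0.742 by limma.

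Of 13 measured genes of arginine, citrulline and polyamine metabolism, 6 were higher and 1 lower in KO low EF against WT hearts (median 0.35), and 4 were higher and 1 lower in KO high EF (median 0.16). Without KO high EF replicate 11, 7 were higher and 2 lower in KO low EF, and 6 were higher and 1 lower in KO high EF (median 0.22). Ass1, argininosuccinate synthase, which turns citrulline back towards arginine, averaged 9.17 ± 0.19 in KO low EF, 8.35 ± 0.48 in KO high EF and 8.09 ± 0.11 in WT hearts. All KO low EF values were at 8.87 or above and all WT values at 8.31 or below. Ass1 was 2.12-fold higher in KO low EF than in WT hearts (1.08 ± 0.14, adjusted p = 1.44e-06), and higher in KO low EF than in KO high EF hearts by 0.81 ± 0.15 (adjusted p = 0.00524). The difference of KO high EF from WT hearts was 0.27 (adjusted p = 0.194), and 0.43 without replicate 11 (adjusted p = 0.00243). The polyamine enzymes Sat1 and Srm were higher in KO low EF hearts by 0.66 and 0.61 (adjusted p = 0.000159 and 0.000103) and in KO high EF hearts by 0.52 and 0.48 (adjusted p = 0.00286 and 0.00203).

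Of 17 measured synthase cofactor and partner genes, 1 was higher and 4 lower in KO low EF against WT hearts (median 0.10). Without KO high EF replicate 11, 2 were higher and 5 lower in that comparison. The 4 genes that were lower with all arrays, named since they are few, serve tetrahydrobiopterin, the cofactor of the synthases. Gchfr, the feedback regulator of its first step, averaged 8.05 ± 0.46 in KO low EF, 8.91 ± 0.68 in KO high EF and 9.20 ± 0.26 in WT hearts and was 2.21-fold lower in KO low EF than in WT hearts (-1.15 ± 0.22, adjusted p = 0.000288). Pts and Spr, which carry out later steps of its synthesis, were lower by 0.60 and 0.35 (adjusted p = 8.14e-05 and 0.00399), and Qdpr, which recycles it, was lower by 0.52 (adjusted p = 6.48e-05). The chaperone Hsp90aa1 was higher by 0.75 (adjusted p = 0.000924). The rate-limiting enzyme Gch1, named after its value was seen, differed by 0.22 ± 0.41 (0.22 ± 0.10 without KO high EF replicate 11, adjusted p = 0.094) and did not pass. Pcbd1, also on this list and named after its value was seen, differed by 0.27 ± 0.12 (adjusted p = 0.105) and did not pass. For KO high EF against WT hearts, 1 gene of this list was higher, Hsp90aa1, and none of the other 16 passed limma's test; without replicate 11, 2 were higher and 3 lower, among them Gchfr (-0.51, adjusted p = 0.0278) and Pts (-0.29, adjusted p = 0.0266). With median scaling, Qdpr and Spr no longer passed in KO low EF hearts (adjusted p = 0.164 and 0.471).

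Of 12 measured genes for other guanylate cyclases and cyclic GMP breakdown and export, 2 were higher and 1 lower in KO low EF against WT hearts (median -0.04), and 2 were higher in KO high EF (without replicate 11, 2 higher and 1 lower). Pde1a, a calmodulin-dependent phosphodiesterase of cyclic GMP and cyclic AMP, averaged 9.29 ± 0.18 in KO low EF, 9.09 ± 0.34 in KO high EF and 8.25 ± 0.29 in WT hearts, and was higher than in WT by 1.04 ± 0.14 and 0.84 ± 0.13 (adjusted p = 2.42e-06 and 6.62e-05). Abcc5, an exporter of cyclic nucleotides, was higher by 0.45 and 0.30 (adjusted p = 6.22e-05 and 0.00466). Pde3a, the cyclic GMP-inhibited phosphodiesterase, was lower in KO low EF hearts by 0.43 (adjusted p = 0.012; 0.0564 with chip as a fixed block).

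Of 15 measured partners and substrates of the kinase, 4 were higher and 4 lower in KO low EF against WT hearts (median -0.06). Vim, the intermediate filament vimentin, was 2.12-fold higher (1.09 ± 0.11, adjusted p = 6.99e-08). Phospholamban (Pln), the inhibitor of the calcium pump, was lower by 0.72 and cardiac troponin I (Tnni3, also on the cardiomyocyte list) by 0.59 (adjusted p = 2.30e-06 and 3.21e-05). For KO high EF against WT hearts, 2 were higher and 1 lower, and without replicate 11, 2 were higher and 3 lower, Pln and Tnni3 among them (-0.32 and -0.33, adjusted p = 0.0137 and 0.00594).

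Of 10 measured genes that remove nitric oxide or nitrosothiols, 1 was higher and 2 lower in KO low EF against WT hearts (median 0.06), and 1 was higher in KO high EF. Without KO high EF replicate 11, 2 were higher and 2 lower in KO low EF, and 1 was higher and 1 lower in KO high EF. Cyb5r3, the reductase that restores oxidised haem proteins, averaged 12.79 ± 0.16 in KO low EF, 12.14 ± 0.18 in KO high EF and 11.75 ± 0.20 in WT hearts. It was higher than in WT by 1.04 ± 0.09 in KO low EF (adjusted p = 8.25e-09) and by 0.38 ± 0.09 in KO high EF hearts (adjusted p = 0.00393), and the difference between the KO groups was 0.65 ± 0.10 (adjusted p = 0.00174). Cbr1, a carbonyl reductase, was lower in KO low EF than in WT hearts by 0.54 and than in KO high EF hearts by 0.39 (adjusted p = 1.94e-05 and 0.0198). Its difference between the KO groups passed in 28 of 33 alternatives. Adh5, which reduces S-nitrosoglutathione, was lower in KO low EF than in WT hearts by 0.42 (adjusted p = 0.00171).

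**Figure D5:**
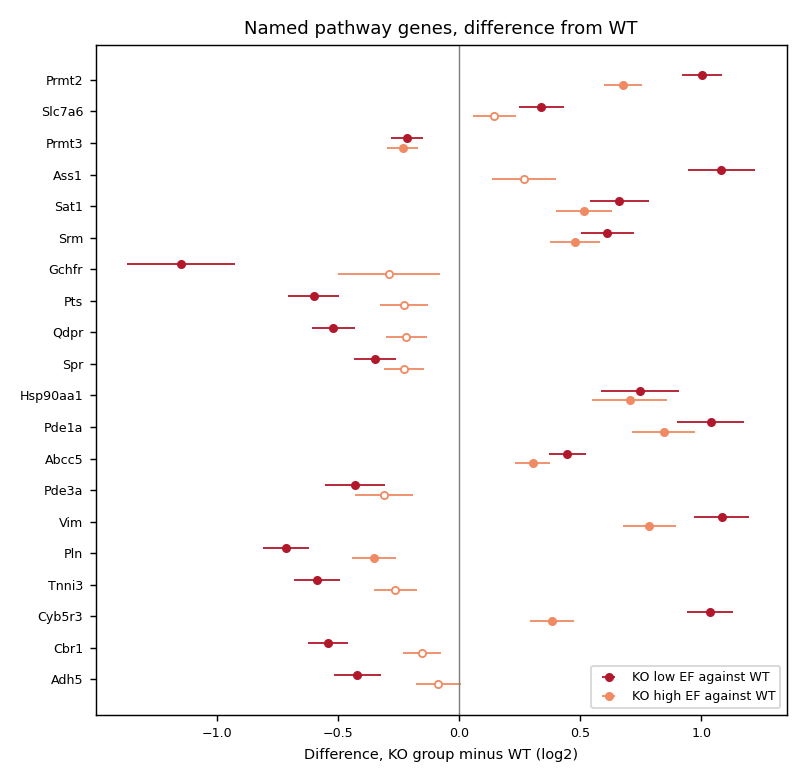
Difference of each KO group from WT (log2, horizontal axis) for 20 of the pathway genes named in the text, listed by pathway group. Bars are standard errors and filled points have an adjusted p under 0.05. Ass1, Prmt2, Pde1a, Vim and Cyb5r3 are 1.00 or more higher in KO low EF hearts, and Gchfr, Pts, Qdpr and Spr are lower there.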

How the data were processed

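The authors deposited bead intensities of 45281 probes for each of 24 hearts, not yet normalized; the submitters' processing notes name BeadStudio and R 2.8.0, with no role. They also deposited normalized log2 values and a table of group means with p-values, whose test the sources used here do not give. From the intensities, normexp background correction (offset 50), log2 and quantile normalization were computed. The 25425 probes above the array median on 6 or more arrays were kept. One limma 3.58.1 model (R 4.3.3) of the 3 group means over 24 arrays gave the group differences, and one over the 13 KO hearts the slope on EF; p-values were Benjamini-Hochberg adjusted over all kept probes at 0.05. On simulated data, 93% of changes of 1 and 60% of 0.5 (log2) in KO low EF against WT were recovered over 25425 probes. Probe names came from the platform annotation (34885 probes) and the authors' table (3983); 6395 stayed unnamed. All member probes are reported. From each pathway list up to 3 genes with the smallest p in KO low EF against WT were named. Spr, Hsp90aa1, Gch1 and Pcbd1 were added after their values were seen. The members and lists were chosen with earlier results of these data known. Nothing says that hearts of a group were handled separately, so p-values measure the spread between these arrays; their number limits the precision. Alternatives covered normalization, background, filter, array weights, chip, age, single arrays left out and replicate number as a block.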

Additional observations from a re-analysis of the deposited data

Results flagged for a closer look

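Of 84 groups of hearts tested for a value far from its neighbours (22 member probes and 20 pathway genes, in KO low EF and KO high EF hearts), 11 held one, where chance gives about 1 in 20. KO high EF replicate 11 held 8 of the 11. Its values were 10.27 for Nos3 probe 1, 5.95 for Nos3 probe 2, 10.47 for Nos3 probe 3, 6.21 for Gucy1a3 probe 3, 7.24 for Nos1 probe 1, 7.85 for Nos1 probe 2, 7.43 for Arg1 probe 1 and 7.72 for Prkg1 probe 4 (log2). The other 3 were Nos3 probe 4 on KO low EF replicate 1 (6.38), Pde3a on KO low EF replicate 6 (7.75) and Prmt3 on KO low EF replicate 3 (10.95).

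The difference from WT was larger in 1 KO group than in the other, by a test of that difference (KO low EF minus KO high EF, limma), for Ddah1 (1.13), Ass1 (0.81), Cyb5r3 (0.65) and Cbr1 (-0.39). Without KO high EF replicate 11 these differences were 1.03, 0.67, 0.61 and -0.32, and each still passed the test (adjusted p = 0.000655, 0.00136, 0.00145 and 0.0216). Not every alternative kept them: Ddah1, Ass1 and Cyb5r3 each passed in 32 of 33, and Cbr1 in 28 of 33. The highest adjusted p-values of limma's test were 0.0546, 0.0918, 0.127 and 0.648 for Ddah1, Ass1, Cyb5r3 and Cbr1.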

How the results depend on the processing

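Ddah1 passed under all 34 alternatives in both KO groups against WT, and Ddah2 under 34 for KO low EF and 33 for KO high EF. Of 18 member probes, 3 passed for KO low EF and 5 for KO high EF hearts against WT, 1 between the KO groups and 1 for the slope. Leaving out 1 array in turn gave 3 to 5, 2 to 6, 1 to 1 and 1 to 1; the KO low EF count was 5 without KO high EF replicate 11 or WT replicate 1. The KO high EF count was 2 without KO high EF replicate 12, and 3 without WT replicate 5, 8, 10 or 11, KO low EF replicate 1, 2, 4 or 5, or KO high EF replicate 9 or 10. Array weights gave 8 in KO low EF against WT hearts, beside 35.1% of all probes, adding Gucy1a3 and Prkg1 probes that were lower. In KO high EF against WT hearts, median scaling gave 1, no filter on dim probes 3 and chip as a fixed block 3. Median scaling gave 0 between the KO groups and 0 for the slope, and chip as a fixed block and the EF group as a term each gave 0 for the slope; in each of these 1 member probe, Ddah1, had an unadjusted p under 0.05. Over all probes, 743 passed between the KO groups, beside 18 with median scaling, 213 with chip as a fixed block and 1977 with array weights. For KO high EF against WT hearts 3661 passed, beside 1710 with median scaling and 1532 with the replicate block. For the slope 507 passed, beside 1415 without KO high EF replicate 11, 1942 with array weights, 795 with age as a covariate and 117 without the 2 hearts farthest from the median EF.

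WT and KO samples share replicate numbers, but same-numbered hearts did not deviate together (correlations of -0.01 to 0.18 over 11 pairs, 2 of them over 0.1), so the numbers were not taken as pairs. With the replicate block, 2 member probes passed against WT for each KO group; Prkg1 probe 4 (adjusted p = 0.0741), Slc7a6 (0.0827) and Prmt3 (0.0821) no longer passed for KO low EF hearts. Signal limits the dim probes of Nos1, Nos2, Arg1, Arg2 and Prkg1, which lie near the array median. No value past the threshold changed sign under an alternative. The refits of the pathway and marker genes were chosen after seeing the data. The cause of these shifts was not tested.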
